A study of Homo sapiens with 12 samples.

Results

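The 10 genes described here belong to the amino acid stress response that runs through the transcription factor ATF4: ATF4 itself, ASNS, CHAC1, TRIB3, DDIT3, PSAT1, PHGDH, SLC3A2, SLC7A11 and SLC7A5. They were taken by name, as the rows of a deposited table of raw counts that carry these symbols, and the rule uses no measured value, though the set was proposed with earlier results of these data known. They are 10 of 75249 gene rows, and all 10 had enough counts to be among the 29114 genes tested. Total RNA was sequenced from A375 and LOX-IMVI BR, both labelled as human metastatic melanoma cell lines. Cells of each line received a control, 6-thio-dG at 5 µM or BIBR1532 at 25 µM, and each of the 6 groups holds 2 libraries labelled as biological replicates. 6-thio-dG is a thiopurine deoxynucleoside that telomerase can build into telomeric DNA, and BIBR1532 is a small-molecule inhibitor of telomerase. The vehicle of the control, the exposure time and the meaning of BR are not stated in the sources used here. The labels do not say whether replicates came from separate cultures, so p-values measure the spread between these libraries, which may be technical.

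When amino acids run short, or unfolded protein builds up in the endoplasmic reticulum, stress kinases phosphorylate the translation factor eIF2α. General protein synthesis then slows while the ATF4 mRNA is translated more, so ATF4 mRNA and ATF4 protein need not move together. ATF4 protein, which was not measured here, switches on genes that make and import amino acids and, under lasting stress, genes that restrain the response or favour cell death.

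Libraries held 11813388 to 25822381 counts. Levels below are CPM of the TMM-scaled library total. The replicates of 2 groups lay far apart. Over all genes tested, the 2 replicates differed by a median of 0.445 on the log2 scale in the A375 control and 0.533 in A375 with 6-thio-dG, against 0.102 to 0.159 in the other groups. Over the 10 genes the median in the A375 control was 0.9, and the largest difference there was 1.45, for PHGDH. Results against the A375 control are therefore also given against either control library alone where that changes the call or moves the size. A batch or other source of this gap was not tested. All 6 groups share 1 estimate of spread for each gene. The spread of the A375 libraries therefore also enters the SE, intervals and p-values given for LOX-IMVI BR. Where groups are said below to lie apart or not to overlap, this describes the printed values. The share of all genes whose groups do so was not counted. In the A375 controls the 7 melanocyte lineage markers summed to 570 to 643 CPM with TYR at 0, and in the LOX-IMVI BR controls to 8.97 to 9.32 CPM with TYR and DCT at 0. The 4 epithelial markers summed to 291 to 612 CPM over the A375 libraries and 36.8 to 43.3 CPM over those of LOX-IMVI BR. In A375 controls KRT8 (127 ± 81.9 CPM) and KRT18 (258 ± 51.9) carried that sum, with EPCAM at 0.14 and CDH1 at 0.019 CPM. The 4 fibroblast markers summed to 5.79 to 6.23 CPM in A375 controls and 1673 to 1698 CPM in LOX-IMVI BR controls. In the latter COL1A1 (1626 ± 16.1 CPM) and PDGFRA (56.0 ± 1.09) carried the sum, with DCN at 2.75 and LUM at 0.67 CPM. Leukocyte and endothelial markers summed to at most 6.57 and 7.88 CPM in any library. The part of these markers in the differences between lines was not tested. In such bulk RNA, fewer cells of a kind and less RNA per cell cannot be told apart.

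ATF4 pairs with C/EBP factors on an element whose core reads TGATGNAA. This motif alone was searched, on both strands, in RefSeq promoter windows of GRCh38.p14 that run from 250 bases before to 50 after an annotated start. The table held 16 windows for 9 of the genes and none for SLC7A11. The motif was found for 3 of the 9 genes, ASNS, CHAC1 and SLC3A2, whereas 1217 of 27305 genes with a window had it (4.46%). The stretches around these 3 matches are shown 5′ to 3′ on the strand of the gene, because they are where the search found the core in this set, and capitals mark it. The ASNS stretch is chr7:97872424-97872521 on the minus strand, with the core at -68 to -61 from the start. For CHAC1 it is chr15:40953221-40953314 on the plus strand, with the core reversed at -209 to -202. The SLC3A2 stretch is chr11:62881726-62881748 on the plus strand, with the core reversed at 38 to 45, just inside the transcript of one of its windows.
ASNS: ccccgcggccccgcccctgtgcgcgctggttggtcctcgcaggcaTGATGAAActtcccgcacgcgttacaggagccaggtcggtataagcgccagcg
CHAC1: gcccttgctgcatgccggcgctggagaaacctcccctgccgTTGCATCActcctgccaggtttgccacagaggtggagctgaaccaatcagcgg
SLC3A2: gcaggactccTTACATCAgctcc
A match in these letters is not a measured binding site.

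**Figure D1:**
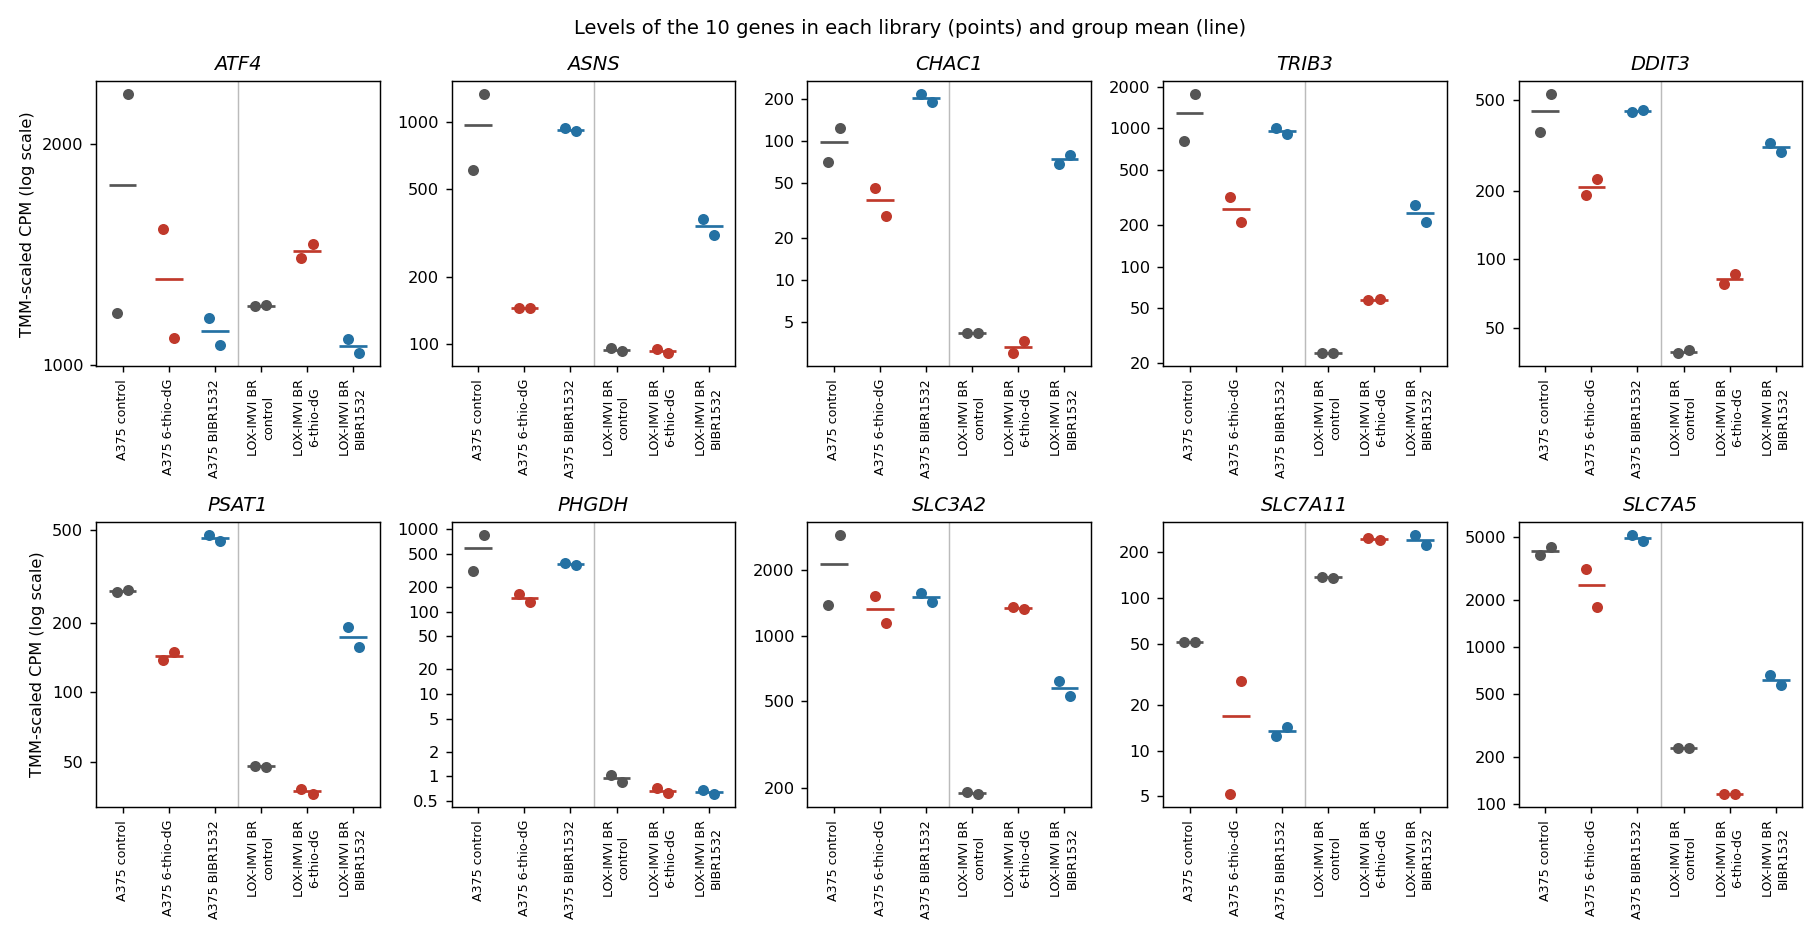
TMM-scaled CPM (vertical log axis, its own range for each gene) of the 10 genes in each of the 12 libraries (points) by group, with the group mean as a line; grey is control, red 6-thio-dG and blue BIBR1532. Most genes sit higher in A375 than in LOX-IMVI BR controls, SLC7A11 sits lower, and the 2 A375 control points of ATF4, ASNS, TRIB3, PHGDH and SLC3A2 are far apart.

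Untreated, the lines differed across most of this set. In LOX-IMVI BR controls 8 of the 10 genes were lower than in A375 controls, 1 was higher, and ATF4 was not called either way. Over all genes tested 28.8% were lower and 21.1% higher in this comparison, and 32.3% and 22.5% of the 14439 with symbols, so a large share of the transcriptome separates these lines. A gene was called at an adjusted p under 0.05 over all 29114 genes (edgeR quasi-likelihood test, Benjamini-Hochberg adjustment). The median log2 difference was -3.5 over the 10 genes and -0.12 over all genes tested.

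ATF4 mRNA itself was at 1176 and 2337 CPM in the A375 controls and at 1203 and 1205 CPM in the LOX-IMVI BR controls. These ranges overlap, and the log2 difference was -0.54 ± 0.32 (SE; adjusted p = 0.165), with a 95% interval of -1.22 to 0.13. Against A375 control replicate 2 alone it was -0.95 (adjusted p = 0.00261), and against replicate 1 alone 0.04 (0.897). DDIT3, which encodes the pro-death factor CHOP, stood at 361 and 530 CPM in A375 and at 38.6 and 40.1 CPM in LOX-IMVI BR, a log2 difference of -3.50 ± 0.30 (adjusted p = 2.87e-07). TRIB3, a pseudokinase that binds ATF4 and holds it back, was at 814 and 1768 CPM against 23.7 and 23.5 CPM, or -5.77 ± 0.43 (adjusted p = 6.29e-08). For both genes every A375 control library lay above every LOX-IMVI BR one.

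The widest gap was in PHGDH, while PSAT1, the other serine synthesis gene of the set, had the narrowest among the genes called lower. PHGDH, the enzyme that starts serine synthesis from a glycolytic intermediate, had 316 and 861 CPM in A375 and 1.05 and 0.863 CPM in LOX-IMVI BR, a log2 difference of -9.26 ± 0.54 (adjusted p = 9.63e-09). It was -9.80 without A375 control replicate 1 and -8.35 without replicate 2. PSAT1, the next enzyme of the same pathway, was at 272 and 278 CPM against 48.0 and 47.6 CPM (log2 -2.52 ± 0.27; adjusted p = 2.84e-06). The pathway's first gene was thus near the floor of detection in LOX-IMVI BR while its second was plainly read. ASNS, which makes asparagine, had 609 and 1339 CPM against 95.9 and 92.7 CPM (log2 -3.37 ± 0.36; adjusted p = 2.25e-06). CHAC1, which breaks down glutathione, had 70.6 and 124 CPM against 4.16 and 4.14 CPM (log2 -4.55 ± 0.39; adjusted p = 2.41e-07).

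Transporters split in direction. SLC3A2 encodes the heavy chain (4F2hc) that carries the light chains SLC7A5 and SLC7A11 to the membrane, and it had 1380 and 2904 CPM in A375 against 192 and 188 CPM in LOX-IMVI BR (log2 -3.50 ± 0.36; adjusted p = 1.53e-06). SLC7A5 (LAT1), the light chain for large neutral amino acids, had 3862 and 4321 CPM against 227 and 226 CPM (log2 -4.18 ± 0.33; adjusted p = 1.11e-07). SLC7A11 (xCT), the light chain that takes up cystine, ran the other way, with 51.6 and 51.4 CPM against 138 and 136 CPM (log2 1.41 ± 0.50; adjusted p = 0.0304). That difference kept its direction without any 1 of the 4 control libraries but not its call (adjusted p 0.0909 to 0.173), and it was 0.32 after removal of a trend on GC content, lowest of all alternatives. The 8 lower genes were called under all 12 alternatives for this comparison. Their size moved with the A375 control used: without replicate 1 and without replicate 2 the log2 differences were -6.22 and -5.10 for TRIB3, -3.82 and -2.69 for ASNS, -3.93 and -2.86 for SLC3A2, and -4.89 and -4.08 for CHAC1.

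Levels of different genes can be set side by side only per length, here per kilobase of the longest coding transcript. In A375 controls SLC3A2 (964 CPM per kilobase), SLC7A5 (902) and ATF4 (870) came first, then TRIB3 (517), DDIT3 (418), ASNS (414), PHGDH (228), PSAT1 (126), CHAC1 (52.7) and SLC7A11 (5.34). The first 3, and TRIB3, DDIT3 and ASNS among themselves, do not differ beyond the spread of those libraries. In LOX-IMVI BR controls ATF4 stood alone at 596 CPM per kilobase. SLC3A2 (85.3), SLC7A5 (49.9), ASNS (40.0), DDIT3 (36.9), PSAT1 (21.9), SLC7A11 (14.2), TRIB3 (9.44), CHAC1 (2.24) and PHGDH (0.371) followed. ATF4 was thus among the highest of the set in both lines. Every gene of the set but SLC7A11 had a lower mean level in LOX-IMVI BR than in A375 controls. This includes ATF4 (596 against 870 CPM per kilobase), whose difference was not called.

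In A375, 6-thio-dG lowered most of the set. Against control 7 of the 10 genes fell and none rose, where 8.21% of all genes tested fell and 9.86% rose (12.9% and 7.81% of those with symbols). ASNS fell most, then TRIB3 and PHGDH. ATF4, SLC3A2 and SLC7A5 were not called. The median log2 change was -1.24 over the 10 genes, 0.03 over all genes tested and -0.25 over those with symbols.

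After 6-thio-dG the A375 libraries had 145 and 146 CPM of ASNS, close together and far under both controls (974 ± 516, mean ± SD). The change was -2.74 ± 0.35 on the log2 scale, a 6.70-fold fall (adjusted p = 0.000264). TRIB3 was at 316 and 208 CPM against 1291 ± 675 (log2 -2.30 ± 0.36; adjusted p = 0.00108). PHGDH was at 165 and 131 CPM against 588 ± 386 (log2 -1.99 ± 0.38; adjusted p = 0.00358). For these 3 genes both treated libraries lay under both controls, and the call was kept under all 13 alternatives. Because the controls disagree, the size is less certain than the direction: against control replicate 1 alone the log2 changes were -2.09, -1.65 and -1.11, and against replicate 2 alone -3.22, -2.77 and -2.56.

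CHAC1 had 45.69 and 29.03 CPM after 6-thio-dG in A375 against 97.4 ± 37.9 in control, a log2 change of -1.38 ± 0.34 (adjusted p = 0.0124). DDIT3 had 192 and 224 CPM against 446 ± 120 (log2 -1.10 ± 0.28; adjusted p = 0.015). PSAT1, whose controls lay close together, had 137 and 149 CPM against 275 ± 4.38 (log2 -0.94 ± 0.26; adjusted p = 0.0228). In each of these genes the groups did not overlap. Against control replicate 1 alone CHAC1 was at -0.94 (adjusted p = 0.0494) and DDIT3 at -0.81, both still called, and against replicate 2 alone at -1.75 and -1.37. Upper-quartile scaling and a fit of the A375 libraries alone both ended all 3 calls, and for PSAT1 the GC correction brought the change to -0.08 (adjusted p = 0.84).

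SLC7A11 was uneven after 6-thio-dG in A375, with 5.17 CPM in replicate 1 and 28.6 CPM in replicate 2, both under the controls at 51.6 and 51.4 CPM. Its log2 change was -1.60 ± 0.51 (adjusted p = 0.0426). It was -0.86 without 6-thio-dG replicate 1 and -3.33 without replicate 2, and the call was lost without either control library (adjusted p = 0.141 and 0.154). SLC7A5 had 3148 and 1798 CPM, both below the controls, but the change of -0.73 ± 0.29 was not called (adjusted p = 0.0918). It was called without control replicate 1 (adjusted p = 0.0461) or without 6-thio-dG replicate 1 (0.0163). SLC3A2, at 1515 and 1149 CPM, and ATF4, at 1530 and 1089 CPM, overlapped their controls, with log2 changes of -0.69 ± 0.32 (adjusted p = 0.152) and -0.42 ± 0.32 (0.366). Both were called lower against control replicate 2 alone, at -1.14 (adjusted p = 0.00348) and -0.85 (0.0139), and neither against replicate 1 alone, at -0.07 (0.843) and 0.13 (0.694).

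BIBR1532 left a different picture in A375. Of the 10 genes 1 rose, CHAC1, and 1 fell, SLC7A11, where 8.49% of all genes tested rose and 7.29% fell (8.95% and 10.3% of those with symbols), so this count is near the background. The other 8 were not called. Their direction often hung on which control was used.

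CHAC1 had 217 and 189 CPM after BIBR1532 in A375, both above the controls at 70.6 and 124 CPM (log2 1.06 ± 0.33; adjusted p = 0.043). That call was lost with DESeq2 size factors, with a fit of the A375 libraries alone and with the replicate block. Against control replicate 1 alone the change was 1.52 (adjusted p = 0.0138). Without control replicate 1 it was 0.71 and no longer called (adjusted p = 0.123), nor was it without either BIBR1532 library (0.262 and 0.132). PSAT1 had 479 and 450 CPM against 272 and 278 CPM, above both controls without overlap, at 0.76 ± 0.26 just short of the threshold (adjusted p = 0.0584). Against control replicate 2 or replicate 1 alone it was called (adjusted p = 0.0378 and 0.0463). SLC7A11 had 12.4 and 14.3 CPM, below both controls (log2 -1.95 ± 0.51; adjusted p = 0.0222), and leaving out any 1 of the 4 libraries ended that call (adjusted p 0.0915 to 0.182) with the change at -2.04 to -1.84.

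ASNS after BIBR1532 in A375 had 938 and 914 CPM, between the 2 controls at 609 and 1339 CPM, and its log2 change was -0.07 ± 0.32 (95% interval -0.76 to 0.62; adjusted p = 0.907). TRIB3 (1000 and 907 CPM), DDIT3 (444 and 453), PHGDH (386 and 367) and SLC3A2 (1572 and 1422) also fell between their controls. Measured against control replicate 2 alone TRIB3, PHGDH, SLC3A2 and ATF4 were called lower, at -0.89, -1.19, -0.95 and -1.07. Set against replicate 1 alone these were 0.23, 0.26, 0.12 and -0.08 and none was called. SLC7A5, at 5173 and 4724 CPM, lay above both controls without a call (log2 0.27 ± 0.29; adjusted p = 0.545). ATF4, at 1157 and 1065 CPM, lay below both (log2 -0.66 ± 0.32; adjusted p = 0.164). The melanocyte markers summed to 1299 to 1461 CPM in these libraries and to 311 to 575 CPM after 6-thio-dG. SOX10 alone carried most of each sum, at 1328 ± 116 and 421 ± 194 CPM against 550 ± 55.2 CPM in control, while MITF stood at 8.04 ± 2.25 CPM with BIBR1532 against 40.0 ± 7.82 CPM. Of the 5 of 7 markers tested 3 were called higher and 1 lower with BIBR1532, and their part in these results was not tested.

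**Figure D2:**
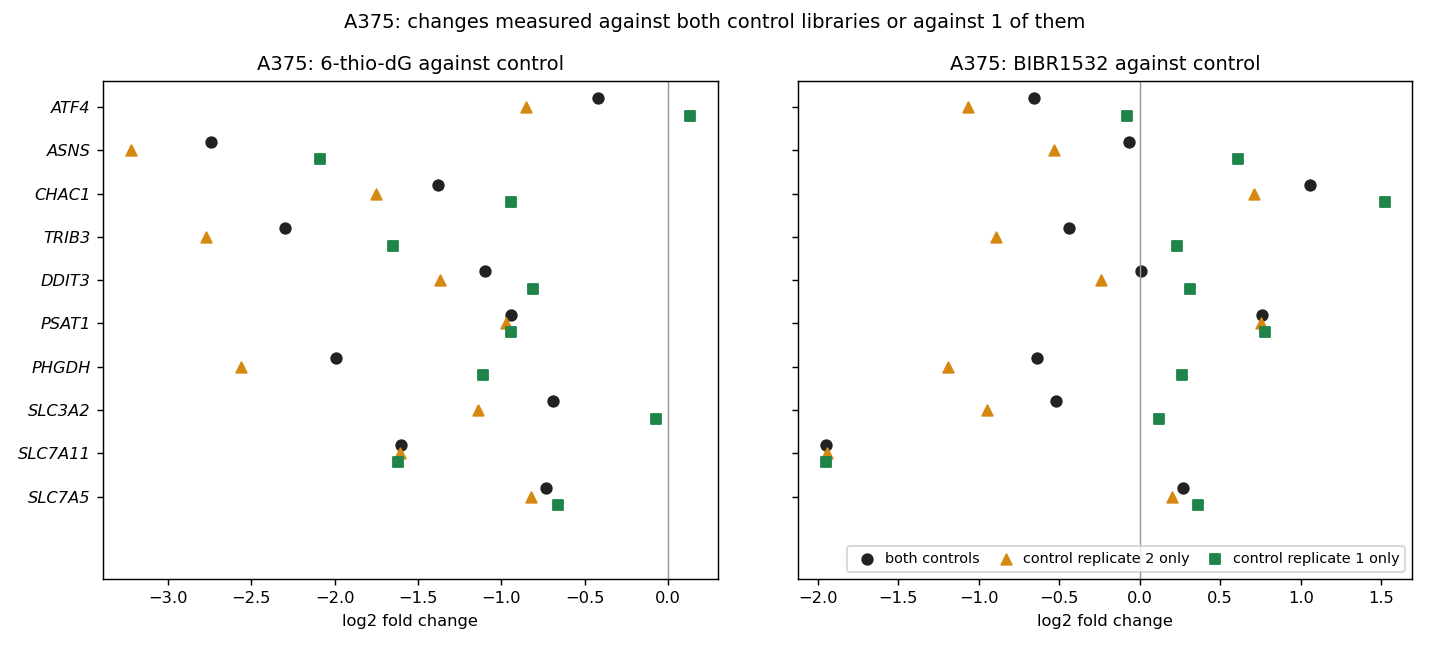
Log2 fold change (horizontal axis) of the 10 genes in A375 for 6-thio-dG and for BIBR1532, measured against both control libraries (circles), against control replicate 2 alone (triangles) and against replicate 1 alone (squares). With 6-thio-dG every gene but ATF4 stays left of 0 with either control, SLC3A2 only just (-0.07 against replicate 1 alone). With BIBR1532 ASNS, TRIB3, DDIT3, PHGDH and SLC3A2 cross 0.

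In LOX-IMVI BR, BIBR1532 raised the set. Against control 7 of the 10 genes rose and none fell, where 2.9% of all genes tested rose and 0.69% fell (3.03% and 0.748% of those with symbols). CHAC1, TRIB3 and DDIT3 rose most, and ASNS, PSAT1, SLC3A2 and SLC7A5 rose too. ATF4, PHGDH and SLC7A11 were not called. The median log2 change was 1.72 over the 10 genes and 0.04 over all genes tested.

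CHAC1 had 68.6 and 78.4 CPM after BIBR1532 in LOX-IMVI BR against 4.16 and 4.14 CPM in control, a 17.7-fold rise (log2 4.15 ± 0.38; adjusted p = 4.37e-05). TRIB3 had 280 and 209 CPM against 23.7 and 23.5 CPM (log2 3.37 ± 0.38; adjusted p = 0.000202). DDIT3 had 322 and 296 CPM against 38.6 and 40.1 CPM (log2 2.97 ± 0.30; adjusted p = 8.7e-05). Treated libraries lay several-fold above every control for these 3 genes, and the treated levels of CHAC1 and TRIB3 still lay under or near the lowest A375 controls. PSAT1 had 191 and 157 CPM against 47.8 ± 0.252 (log2 1.86 ± 0.27; adjusted p = 0.000964). These 4 calls were kept under all 13 alternatives, each library left out in turn included.

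ASNS had 367 and 310 CPM after BIBR1532 in LOX-IMVI BR against 94.3 ± 2.26 (log2 1.84 ± 0.33; adjusted p = 0.00548). SLC7A5 had 665 and 572 CPM against 226 ± 0.346 (log2 1.45 ± 0.29; adjusted p = 0.0113). SLC3A2 had 621 and 529 CPM against 190 ± 2.68 (log2 1.60 ± 0.33; adjusted p = 0.0131). The heavy chain and its LAT1 partner thus rose side by side, each about 3-fold (3.03 and 2.73). These 3 rises were smaller than those of the stress outputs and less firmly called. Without any 1 of the 4 libraries the SLC3A2 and SLC7A5 calls were lost (adjusted p 0.057 to 0.183 and 0.0572 to 0.183), and ASNS was called only without BIBR1532 replicate 2 (0.0266, otherwise up to 0.12). Their log2 changes stayed at 1.48 to 1.71, 1.34 to 1.55 and 1.72 to 1.96.

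SLC7A11 in LOX-IMVI BR had 260 and 223 CPM after BIBR1532 against 138 and 136 CPM, higher in both libraries without a call (log2 0.83 ± 0.49; adjusted p = 0.479; 95% interval -0.23 to 1.88). ATF4 was at 1085 and 1036 CPM against 1203 and 1205 CPM, slightly lower in both libraries (log2 -0.18 ± 0.32; adjusted p = 0.873), and the 95% interval of -0.85 to 0.49 leaves out a 2-fold change in either direction. PHGDH stayed near the floor at 0.684 and 0.608 CPM (log2 -0.57 ± 0.51; adjusted p = 0.678). So PSAT1 rose while the enzyme before it in the pathway was almost unread. In a fit of the LOX-IMVI BR libraries alone, where A375 spread does not enter, SLC7A11 was called higher (edgeR adjusted p = 1.37e-08). ATF4 was called lower in that fit (8.43e-05).

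With 6-thio-dG only part of the set was called in LOX-IMVI BR. Of the 10 genes 3 rose, SLC3A2, TRIB3 and DDIT3, and 1 fell, SLC7A5. Over all genes tested 9.81% rose and 7.16% fell (6.21% and 10.8% of those with symbols), so the count that fell is near the background. SLC3A2 rose 7.05-fold. ATF4, ASNS, CHAC1, PSAT1, PHGDH and SLC7A11 were not called. The median log2 change was 0.11 over the 10 genes and 0.05 over all genes tested.

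SLC3A2 had 1351 and 1321 CPM after 6-thio-dG in LOX-IMVI BR against 192 and 188 CPM, a level like that of the A375 libraries (log2 2.82 ± 0.35; adjusted p = 0.000122). That call was kept under all 13 alternatives, with the change at 2.78 to 3.05. SLC7A5, its LAT1 light chain, had 116 CPM in both treated libraries against 227 and 226 CPM and so ran the other way (log2 -0.97 ± 0.29; adjusted p = 0.0318). The SLC7A5 call was lost under 7 of 13 alternatives, among them each library left out (adjusted p 0.15 to 0.197). SLC7A11, the cystine light chain, had 248 and 240 CPM, above both controls without a call (log2 0.84 ± 0.49; adjusted p = 0.286).

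TRIB3 had 57.1 and 58.3 CPM after 6-thio-dG in LOX-IMVI BR against 23.7 and 23.5 CPM (log2 1.29 ± 0.35; adjusted p = 0.021). DDIT3 had 77.8 and 85.8 CPM against 38.6 and 40.1 CPM (log2 1.06 ± 0.28; adjusted p = 0.017). In both genes replicates nearly coincided and groups were well apart, but each call was lost when any 1 of the 4 libraries was left out (adjusted p 0.101 to 0.15 and 0.0936 to 0.171), with the changes at 1.26 to 1.30 and 0.97 to 1.12. ASNS, at 94.8 and 90.5 CPM, did not move beyond the spread of its controls at 95.9 and 92.7 CPM (log2 -0.02 ± 0.32; 95% interval -0.72 to 0.67; adjusted p = 0.995). CHAC1, at 2.96 and 3.62 CPM, lay a little under its controls (log2 -0.33 ± 0.35; adjusted p = 0.581). PSAT1, at 38.3 and 36.2 CPM, did too (log2 -0.36 ± 0.26; adjusted p = 0.394), and PHGDH was at 0.721 and 0.620 CPM (log2 -0.51 ± 0.48; adjusted p = 0.53). ATF4, at 1398 and 1459 CPM, was above both controls (log2 0.25 ± 0.32, adjusted p = 0.661). In a fit of the LOX-IMVI BR libraries alone ATF4 was called higher (edgeR adjusted p = 4.32e-05) and PSAT1 lower (0.00719). SLC7A11 was called higher in that fit and with the GC trend removed. With 6-thio-dG in LOX-IMVI BR the 4 fibroblast markers summed to 21.7 to 22.7 CPM against 1673 to 1698 CPM in the controls. Among these markers COL1A1 alone stood at 15.4 ± 0.608 against 1626 ± 16.1 CPM. Their part in these results was not tested.

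**Figure D3:**
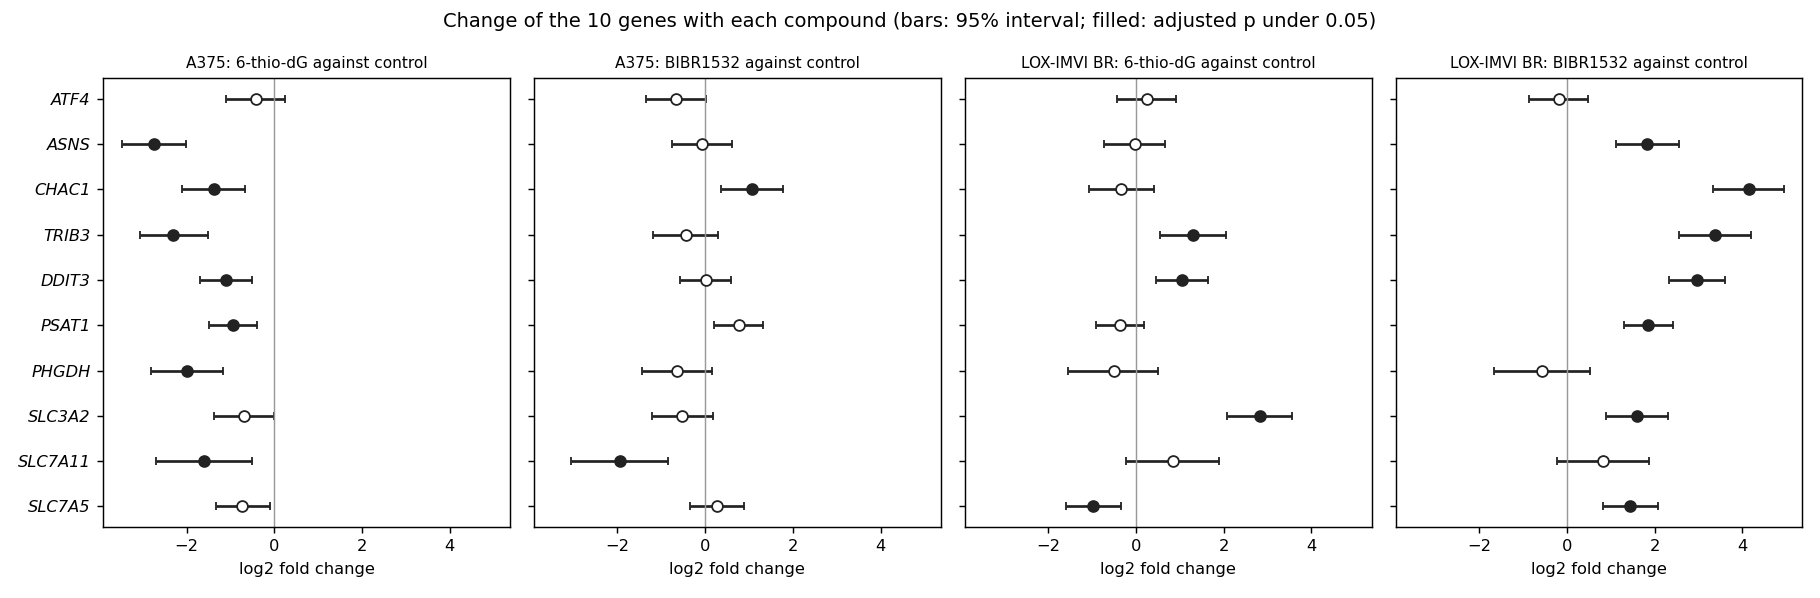
Log2 fold change against control (horizontal axis) of the 10 genes for each compound in each line, with the 95% interval from the fit; filled points were called at an adjusted p under 0.05. Filled points lie left of 0 for 7 genes with 6-thio-dG in A375 and right of 0 for 7 genes with BIBR1532 in LOX-IMVI BR.

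The compounds were also set against each other within each line, at their different doses. In A375 7 of the 10 genes were lower with 6-thio-dG than with BIBR1532 and none was higher, where 8.76% of all genes tested were lower and 7.26% higher (11.4% and 5.13% of those with symbols). In LOX-IMVI BR 6 were lower and 1, SLC3A2, was higher, where 10.7% were lower and 9.89% higher (14.8% and 5.53% of those with symbols). ASNS, CHAC1, TRIB3, DDIT3, PSAT1 and SLC7A5 were lower with 6-thio-dG in both lines, and PHGDH was called in A375 but not in LOX-IMVI BR, where it was near the floor. The control libraries do not enter these differences, though they share in the estimate of spread behind the p-values.

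CHAC1 had log2 differences of -2.44 ± 0.35 in A375 (adjusted p = 0.00035) and -4.48 ± 0.38 in LOX-IMVI BR (adjusted p = 3.98e-06). ASNS differed by -2.67 ± 0.34 (adjusted p = 0.000171) and -1.87 ± 0.33 (0.0013). Here A375 libraries with 6-thio-dG held 145 and 146 CPM of ASNS against 938 and 914 CPM with BIBR1532. PSAT1 differed by -1.70 ± 0.26 (adjusted p = 0.000657) and -2.22 ± 0.27 (6.49e-05), and TRIB3 by -1.86 ± 0.36 (0.00286) and -2.08 ± 0.36 (0.00102). For these 4 genes all calls in both lines were kept under all 13 alternatives.

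DDIT3 differed by -1.11 ± 0.28 in A375 (adjusted p = 0.0141) and -1.92 ± 0.28 in LOX-IMVI BR (0.000319), and SLC7A5 by -1 ± 0.29 (0.0294) and -2.42 ± 0.30 (8.19e-05). In A375 PHGDH differed by -1.35 ± 0.38 (adjusted p = 0.0249). The A375 calls of these 3 genes were each lost under 4 or 5 of 13 alternatives. Without BIBR1532 replicate 1 all 3 were lost, without BIBR1532 replicate 2 DDIT3 and PHGDH were, and without 6-thio-dG replicate 2 PHGDH and SLC7A5 were (adjusted p up to 0.0934 for DDIT3, 0.12 for PHGDH and 0.179 for SLC7A5). SLC3A2 was higher with 6-thio-dG in LOX-IMVI BR (log2 1.22 ± 0.33; adjusted p = 0.0162) but not without any 1 of those 4 libraries (up to 0.158), and differed by -0.17 ± 0.32 in A375 (0.765; 95% interval -0.86 to 0.52). ATF4 in LOX-IMVI BR was called higher with 6-thio-dG in a fit of that line alone and with the GC trend removed. In the main fit the compounds differed for ATF4 by 0.24 ± 0.32 in A375 (adjusted p = 0.651; 95% interval -0.43 to 0.91) and 0.43 ± 0.32 in LOX-IMVI BR (0.376; -0.24 to 1.10). For SLC7A11 they differed by 0.34 ± 0.50 (0.684; -0.73 to 1.42) and 0.01 ± 0.49 (reported as 1; -1.04 to 1.06).

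Whether a compound acted differently in the lines was tested as an interaction, the log2 change in LOX-IMVI BR minus that in A375. For 6-thio-dG 4 of the 10 genes differed, all higher in LOX-IMVI BR, where 2.48% of all genes tested were higher and 3.06% lower (3.1% and 4.16% of those with symbols). TRIB3 fell in A375 and rose in LOX-IMVI BR, and the difference was 3.59 ± 0.51 (adjusted p = 0.000979). DDIT3 did the same with a difference of 2.15 ± 0.39 (adjusted p = 0.00554). SLC3A2 differed by 3.50 ± 0.47 (adjusted p = 0.000681), and ASNS by 2.72 ± 0.47 (0.0037), having fallen in A375 and stood still within its spread in LOX-IMVI BR. ASNS, TRIB3 and SLC3A2 kept these calls under all 16 alternatives, and DDIT3 lost its call without LOX-IMVI BR control replicate 1 (adjusted p = 0.0538). SLC7A11 (2.44 ± 0.71; adjusted p = 0.0604), PHGDH (1.48 ± 0.61; 0.19), CHAC1 (1.05 ± 0.48; 0.243), ATF4 (0.67 ± 0.45; 0.446), PSAT1 (0.58 ± 0.36; 0.415) and SLC7A5 (-0.24 ± 0.41; 0.804) were not called.

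For BIBR1532 6 of the 10 genes differed between the lines, all higher in LOX-IMVI BR, where 2.09% of all genes tested were higher and 1.54% lower (2.76% and 1.97% of those with symbols). TRIB3 (3.81 ± 0.51; adjusted p = 0.00126), CHAC1 (3.09 ± 0.48; 0.00395) and DDIT3 (2.96 ± 0.40; 0.00127) kept these calls under all 16 alternatives. CHAC1 lay above both controls in both lines, so for it the difference is one of size. Its call in A375 was lost under 6 of 13 alternatives, however. SLC7A11 (2.77 ± 0.71; 0.0465), SLC3A2 (2.12 ± 0.46; 0.0234) and ASNS (1.92 ± 0.46; 0.0358) lost the call under 11, 8 and 8 of the 16. Leaving out any BIBR1532 library or LOX-IMVI BR control ended these 3 calls, and leaving out either A375 control ended that of SLC7A11 (adjusted p up to 0.217, 0.14 and 0.18). PSAT1 (1.10 ± 0.36; 0.0994), SLC7A5 (1.18 ± 0.41; 0.114), ATF4 (0.48 ± 0.45; 0.581) and PHGDH (0.07 ± 0.68; reported as 1) were not called. Both interactions share their control libraries, as do both compounds within a line.

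**Figure D4:**
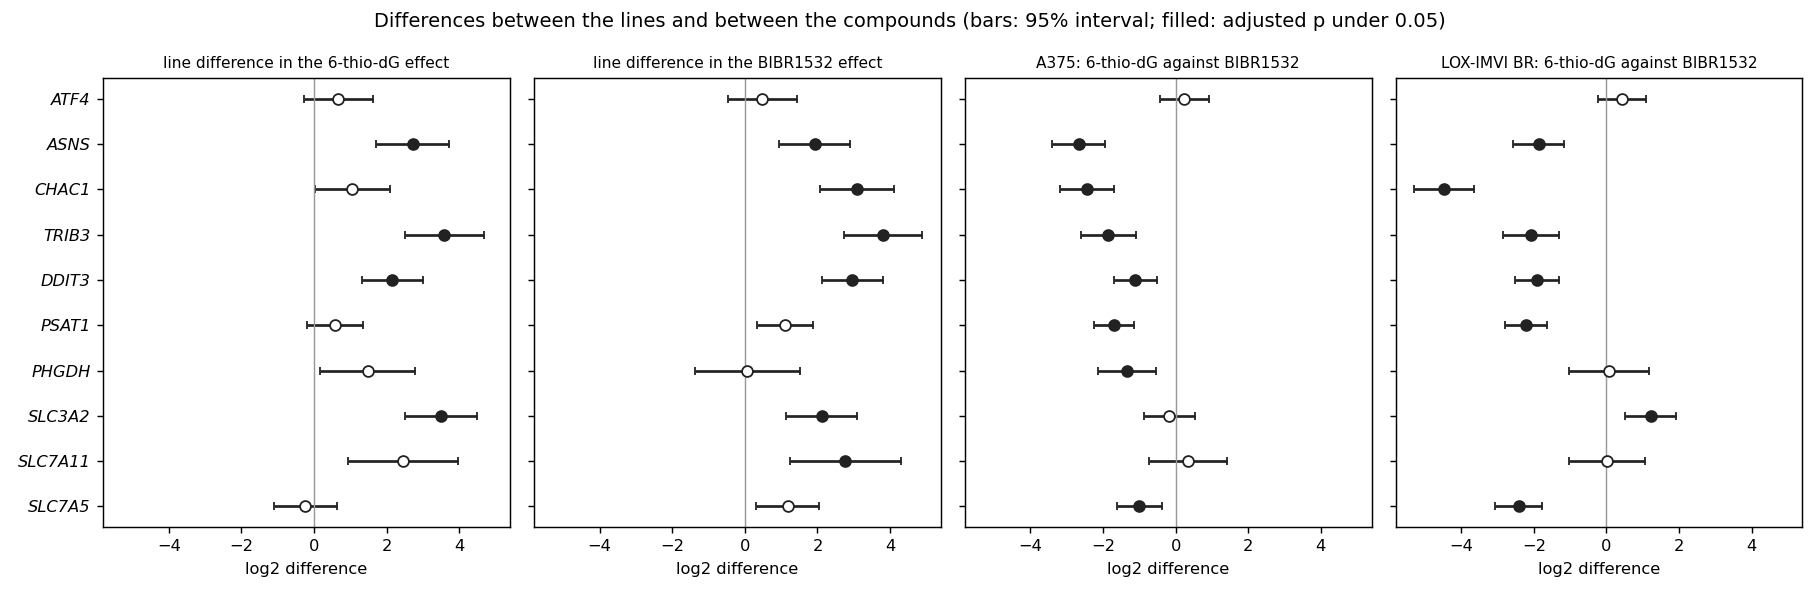
Log2 difference (horizontal axis) of the 10 genes with its 95% interval, for the line difference in each compound's effect (LOX-IMVI BR minus A375) and for 6-thio-dG against BIBR1532 in each line; filled points were called. All 10 called line differences lie right of 0, and CHAC1 in LOX-IMVI BR lies farthest left at -4.48.

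Among the 6 libraries of a line, log2 CPM of ATF4 and of the other genes did not run together in any uniform way. In A375 the Pearson correlation with ATF4 was 0.92 for SLC3A2, 0.58 for PHGDH, 0.44 for TRIB3 and -0.19 to 0.26 for the rest. In LOX-IMVI BR it was -0.96 for SLC7A5, -0.88 for PSAT1, -0.84 for CHAC1 and -0.81 for ASNS, and 0.51 for SLC3A2. These are descriptions over 6 libraries in 3 groups that share a line and its treatments.

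The wider pathway was followed in 64 other genes in 8 lists, all of which passed the low-count filter. With 6-thio-dG in A375 37 of the 64 fell and none rose, where 12.9% of symbol-named genes tested fell and 7.81% rose. With BIBR1532 in A375 13 fell and 1 rose, where 10.3% fell and 8.95% rose. In LOX-IMVI BR 10 fell and 6 rose with 6-thio-dG, not far above the 10.8% and 6.21% of symbol-named genes. With BIBR1532 there 14 rose and 2 fell, where 3.03% rose and 0.748% fell. These shares are also the background of the list counts below, and those over all genes tested are given above. Without A375 control replicate 1 the 14 genes called with BIBR1532 in A375 became 24, without control replicate 2 they became 2, and without either BIBR1532 library none was called; in LOX-IMVI BR the 16 called with BIBR1532 became 7 to 9 with any 1 library left out.

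Upstream of ATF4 stand the eIF2α kinases and the phosphatase subunit PPP1R15A (GADD34), an ATF4 target that turns the response off. PPP1R15A went from 2131 and 3956 CPM to 926 and 653 CPM with 6-thio-dG in A375 (log2 -1.95 ± 0.33; adjusted p = 0.00163). In LOX-IMVI BR it rose from 323 and 325 CPM to 971 and 1050 CPM with 6-thio-dG (log2 1.64 ± 0.33; adjusted p = 0.00351) and to 1804 and 1299 CPM with BIBR1532 (log2 2.26 ± 0.33; adjusted p = 0.00118). It thus moved in the directions TRIB3 and DDIT3 did. Of the 7 genes of this list 2 fell with 6-thio-dG in A375 (median log2 -0.82), the other being EIF2AK4 (GCN2), the amino acid sensor, from 105 ± 24.4 to 42.3 ± 10.2 CPM. With BIBR1532 in A375 1 was called lower, EIF2S1, the gene of eIF2α itself (median -0.63). The EIF2S1 call was lost when either BIBR1532 library was left out. EIF2AK1 fell with 6-thio-dG in LOX-IMVI BR, from 161 ± 3.25 to 73.4 ± 0.123 CPM (list median -0.21).

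Of the 6 partner and related factors 4 rose with BIBR1532 in LOX-IMVI BR (median log2 1.70), among them ATF3, a stress-induced factor, from 2.66 and 2.14 CPM to 25.1 and 21.2 CPM (log2 3.27 ± 0.38; adjusted p = 0.000246). CEBPG, a dimer partner of ATF4, rose from 78.5 ± 1.40 to 244 ± 7.5 CPM, and JDP2 from 11.1 ± 0.165 to 37.9 ± 3.80 CPM. ATF3 and NUPR1 also rose with 6-thio-dG in LOX-IMVI BR (list median 0.14), ATF3 to 10.97 and 12.29 CPM and NUPR1 from 36.0 ± 0.668 to 153 ± 1.48 CPM. In A375 CEBPG (154 ± 24.1 to 46.5 ± 21.1 CPM) and CEBPB (185 ± 85.0 to 66.5 ± 27.3 CPM) fell with 6-thio-dG (list median -0.38). With BIBR1532 NUPR1 was called lower there, from 114 ± 76.1 to 48.1 ± 4.78 CPM (list median 0.24). That call was lost when either BIBR1532 library was left out, and the 2 controls lay far apart.

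The other metabolic genes were followed in 3 lists. With 6-thio-dG in A375 3 of 6 serine and one-carbon enzymes (median log2 -1.09), 6 of 7 other amino acid enzymes (-1.94) and 3 of 6 other transporters (-1.19) fell. ALDH1L2, a mitochondrial folate enzyme, went from 180 and 86.2 CPM to 6.84 and 18.4 CPM (log2 -3.40 ± 0.46; adjusted p = 0.000422). CBS, which joins homocysteine and serine, went from 104 and 225 CPM to 25.7 and 18.4 CPM (log2 -2.89 ± 0.37; adjusted p = 0.000273). MTHFD2 fell from 482 ± 6.88 to 172 ± 73.2 CPM, and the glutamine transporter SLC1A5 from 2069 ± 1147 to 758 ± 209 CPM. With BIBR1532 in LOX-IMVI BR 2 of 6, 2 of 7 and 1 of 6 genes of these lists rose (medians 0.75, 1.07 and 0.71). PSPH, which completes serine synthesis after PSAT1, rose from 9.74 ± 1.82 to 39.3 ± 5.80 CPM (log2 2.01 ± 0.36; adjusted p = 0.00484). PCK2 rose from 16.8 ± 0.920 to 121 ± 21.6 CPM (log2 2.85 ± 0.38; adjusted p = 0.000567), and the neutral amino acid transporter SLC1A4 from 1.45 and 2.05 CPM to 19.2 and 14.3 CPM (log2 3.25 ± 0.38; adjusted p = 0.00028). In the remaining comparisons SLC38A2 fell with BIBR1532 in A375, from 82.9 ± 47.4 to 25.8 ± 4.15 CPM, and SHMT1 with 6-thio-dG in LOX-IMVI BR, from 29.7 ± 1.26 to 10.6 ± 0.599 CPM. The SLC38A2 call was lost when either BIBR1532 library was left out.

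Among 8 other stress outputs SESN2 (37.1 and 38.6 to 340 and 313 CPM; log2 3.11 ± 0.33; adjusted p = 0.000107), STC2 and GDF15 rose with BIBR1532 in LOX-IMVI BR (list median 0.39). GDF15, a secreted stress cytokine, rose with both compounds there, from 43.6 ± 0.935 to 346 ± 11.96 CPM with 6-thio-dG and 306 ± 46.8 CPM with BIBR1532. DDIT4, an inhibitor of mTORC1 signalling, did the opposite with 6-thio-dG, from 368 and 352 CPM to 11.2 and 10.8 CPM (log2 -5.03 ± 0.39; adjusted p = 3.79e-06). That list had 3 higher and 2 lower in this comparison (median -0.05). STC2 fell with 6-thio-dG in A375, from 176 and 175 CPM to 34.6 and 29.1 CPM (log2 -2.46 ± 0.28; adjusted p = 0.000122), as 1 of 4 of the list to do so (median -0.90). VLDLR was called higher there with BIBR1532, from 10.01 ± 2.9 to 22.4 ± 1.89 CPM (list median -0.45), a call lost when either BIBR1532 library was left out.

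Genes of the neighbouring endoplasmic reticulum stress branches, ATF6 and XBP1, had no gene called higher in any comparison with control, and 8, 6, 6 and 2 of 13 fell with 6-thio-dG in A375, BIBR1532 in A375, 6-thio-dG in LOX-IMVI BR and BIBR1532 in LOX-IMVI BR (medians -1.43, -1, -1.38 and -0.41). XBP1 itself, named after its values were seen, was at 83.5 ± 1.79 CPM in LOX-IMVI BR controls and 181 ± 5.40 CPM with BIBR1532, just short of the threshold (log2 1.12 ± 0.30; adjusted p = 0.0552). HSPA5 (BiP), the main chaperone of that compartment, went from 2263 and 2166 CPM to 387 and 404 CPM with 6-thio-dG in LOX-IMVI BR (log2 -2.49 ± 0.26; adjusted p = 3.2e-05). There SLC3A2, TRIB3 and DDIT3 rose while HSPA5, MANF and PDIA4 fell. In A375 HSP90B1 fell with BIBR1532 from 1297 ± 149 to 228 ± 35.7 CPM (log2 -2.51 ± 0.48; adjusted p = 0.00435). The HSP90B1 call was lost when either BIBR1532 library was left out. MANF and CRELD2 were the 2 that fell with BIBR1532 in LOX-IMVI BR, at -1.28 ± 0.28 and -1.35 ± 0.36, the latter at the edge of the threshold (adjusted p = 0.0196 and 0.05 as rounded).

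Of 11 cytosolic aminoacyl-tRNA synthetases, which load amino acids on tRNA, 9 fell with 6-thio-dG in A375 (median log2 -1.55) and 4 with BIBR1532 in A375 (-0.50). In LOX-IMVI BR none was called with 6-thio-dG (-0.43), and AARS alone rose with BIBR1532 (median 0.60), from 324 ± 3.41 to 849 ± 81.3 CPM. MARS matters for DDIT3, because its exons overlap 355 of the 1307 exonic bases of DDIT3 on the opposite strand and these libraries do not keep strand. MARS changed by 0.69 ± 0.32 with BIBR1532 in LOX-IMVI BR (adjusted p = 0.329), and by -1.57 ± 0.33 with 6-thio-dG in A375 (0.00587). DDIT3 also overlaps MBD6 over 58 bases on the opposite strand and AC022506.1 over 105 on its own. ASNS shares 1985 of its 4455 exonic bases with AC079781.5 on the same strand, so reads there could be divided between them or left uncounted. Overlaps on the opposite strand were annotated for SLC7A11, with SLC7A11-AS1 over 865 of 9645 bases, and for SLC7A5, over 271 of 4745 bases.

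**Figure D5:**
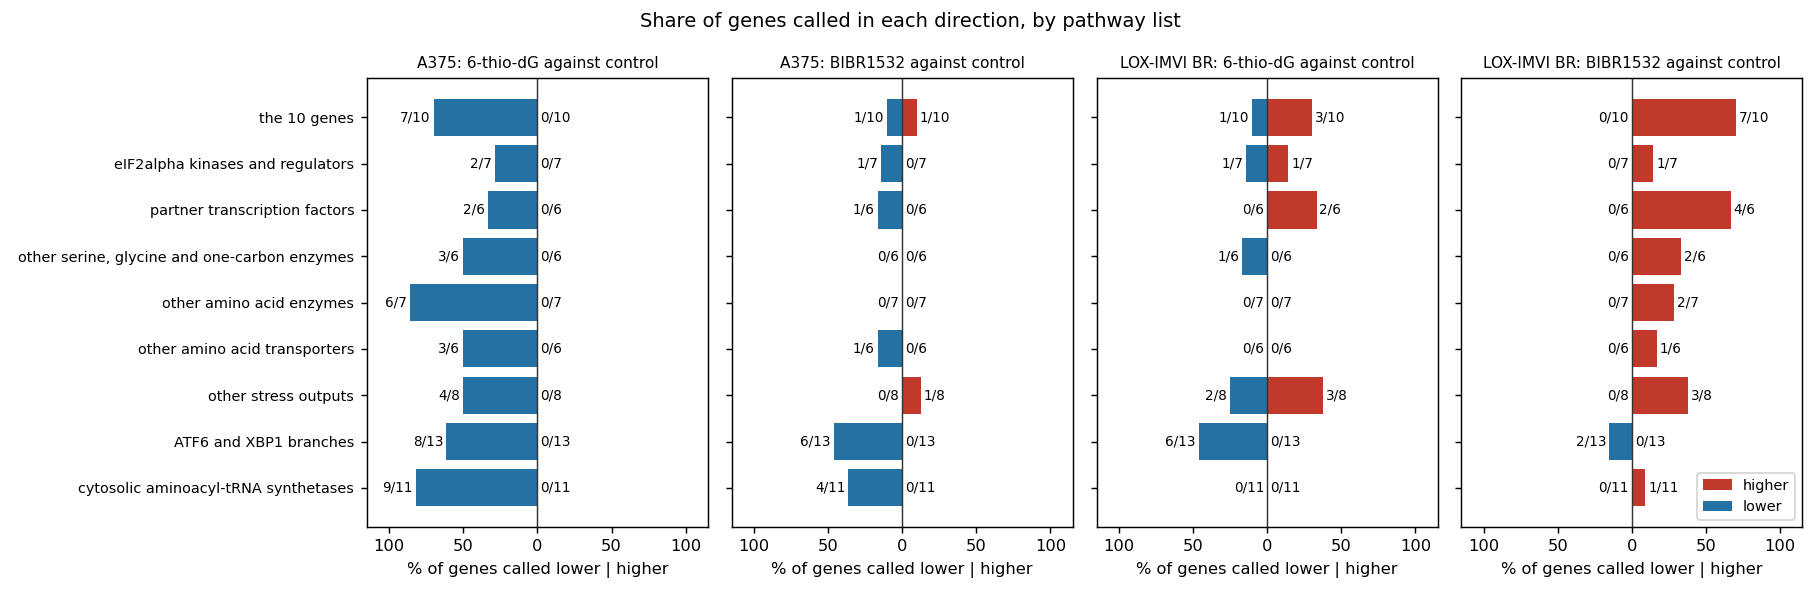
Percent of each list's genes called higher (red, right) or lower (blue, left) against control, for the 10 genes and 8 other lists of the pathway, with counts beside the bars. In A375 with 6-thio-dG every bar points left, and in LOX-IMVI BR with BIBR1532 every bar points right except the ATF6 and XBP1 list, where 2 of 13 were lower.

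The genes whose pattern was most like that of the set were sought among 10186 symbol-named genes whose mean reached 5 CPM. The measure was the Pearson correlation over 12 libraries, each line's mean subtracted, with the mean of the 10 genes' standardized log2 CPM. The 5 highest were ARHGEF2 (0.981), LARP6 (0.973), ADRA1B (0.972), CHIC2 (0.972) and GOT1 (0.971), and GOT1, aspartate aminotransferase, is in the list of amino acid enzymes. ARHGEF2, which encodes an exchange factor for RhoA, had 1273 and 2276 CPM in the A375 controls, 823 and 548 CPM with 6-thio-dG and 1271 and 1182 CPM with BIBR1532. In LOX-IMVI BR it had 221 and 214, 319 and 327, and 714 and 596 CPM. These 5 genes show the same uneven A375 controls as the set, which adds to the likeness.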

How the data were processed

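RNA was extracted with TRIzol and sequenced from TruSeq libraries that do not keep strand, per the labels' protocols. The authors deposited raw read counts per gene for all 12 libraries. STAR, Picard, GATK, featureCounts 1.5.1 and the builds hg19 and GRCh37 are named in the submitters' processing notes, without roles. Of 75253 rows 4 symbols had turned into ambiguous dates and were dropped (at most 0.000913% of a library), and 54072 rows carry NONCODE identifiers.

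R 4.3.3 with edgeR 4.0.16 and limma 3.58.1 was used on the counts. filterByExpr left 29114 genes (14439 with symbols), library sizes were TMM-scaled, and 1 robust quasi-likelihood fit over 12 libraries gave each of 6 groups its own mean and 9 comparisons, with 6 residual degrees of freedom. p-values were adjusted by Benjamini-Hochberg over all genes tested within a comparison and called under 0.05. The SE is the log2 change divided by the square root of F. The common biological coefficient of variation was 25.8%. Alternatives were DESeq2 1.42.0 size factors, its test, upper-quartile factors, no low-count filter, symbol-named rows alone, the line's libraries alone, a replicate block, a GC trend removed, each library left out, and, chosen after seeing the data, the block with A375 control numbers crossed.

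The 10 genes, the pathway lists and the marker lists were chosen with earlier results of these data known. All 10 are named; of each other list up to 3 called genes with the smallest adjusted p in a comparison with control could be named, and the 5 genes most alike in pattern (0.5 CPM added before the logarithm). Promoter windows came from RefSeq, GRCh38.p14; no coordinates were moved between builds. On simulated data for 6-thio-dG against control in A375 (26105 genes) edgeR recovered 1 of 100 genes changed by 1 on the log2 scale. It recovered 76 of 100 changed by 2, with 12 unchanged genes called, and DESeq2 recovered 22 and 85, with 19. Only these genes were changed there, whereas in the data 2871 genes were called higher and 2390 lower. The adjusted threshold is therefore stricter in the simulation, and these shares are not the power of the reported tests.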

Additional observations from a re-analysis of the deposited data

Results flagged for a closer look

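For 10 results, the log2 change in LOX-IMVI BR differed from that in A375 by the interaction term of the edgeR fit. With 6-thio-dG these were TRIB3 (3.59; adjusted p = 0.000979), SLC3A2 (3.50; 0.000681), ASNS (2.72; 0.0037) and DDIT3 (2.15; 0.00554). With BIBR1532 they were TRIB3 (3.81; 0.00126), CHAC1 (3.09; 0.00395), DDIT3 (2.96; 0.00127), SLC7A11 (2.77; 0.0465), SLC3A2 (2.12; 0.0234) and ASNS (1.92; 0.0358). All 10 differences were positive, and TRIB3, DDIT3, SLC3A2 and ASNS differed with both compounds, which share the control libraries. Levels were lower in LOX-IMVI BR than in A375 controls by log2 differences of -3.50 for DDIT3 and SLC3A2, -3.37 for ASNS, -5.77 for TRIB3 and -4.55 for CHAC1, and without A375 control replicate 2 by -3.19, -2.86, -2.69, -5.10 and -4.08 for DDIT3, SLC3A2, ASNS, TRIB3 and CHAC1. How far the starting level bears on these differences was not tested.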

How the results depend on the processing

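Of 780 recomputed single-gene results under alternatives that kept all libraries, 695 kept their direction and side of the threshold, 34 lost the call, 33 gained one and 18 turned sign; of 440 with 1 library left out, 331, 68, 20 and 21 did. No result that was called turned sign under any alternative run. The number of the 10 genes called with 6-thio-dG in A375 was 7, and 4 with upper-quartile factors, 3 with the line's libraries alone and 6 to 9 with 1 library left out. With BIBR1532 in A375 it was 2, and 1 with DESeq2 size factors, 0 with the line alone, 1 with the replicate block, 4 with the GC trend removed and 0 to 5 with 1 library left out. With 6-thio-dG in LOX-IMVI BR it was 4, and 7 with the line alone and 1 with any library left out; with BIBR1532 there it was 7, and 4 to 5 with 1 left out. For 6-thio-dG against BIBR1532 in A375 it was 7, and 4 with upper-quartile factors, 4 with the line alone and 4 to 8 with 1 left out. The line difference had 4 for 6-thio-dG, and 8 with the GC trend removed and 3 to 7 with 1 left out, and 6 for BIBR1532, and 3 to 7 with 1 left out. The cause was not tested; leaving out a library also leaves fewer samples.

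These uncalled values turned sign. With 6-thio-dG in A375, ATF4 was 0.02 with upper-quartile factors and -0.85 to 0.13 with 1 library left out. With BIBR1532 in A375, ASNS was 0.17 with upper-quartile factors, 0.01 with no filter, 0.04 with symbol-named rows and -0.53 to 0.61 with 1 left out; DDIT3 was -0.08 with the GC trend removed and -0.24 to 0.31; TRIB3 was -0.89 to 0.23, PHGDH -1.19 to 0.26 and SLC3A2 -0.95 to 0.12 with 1 left out. With 6-thio-dG in LOX-IMVI BR, ASNS was 0.21, 0.16 and 0.20 with upper-quartile factors, symbol-named rows and the GC trend removed. Between the compounds in A375, SLC3A2 was 0.03 with upper-quartile factors and -0.45 to 0 with 1 left out, ATF4 -0.06 with no filter and -0.04 to 0.45, and SLC7A11 -0.27 with the GC trend removed and -1.38 to 1.08. In LOX-IMVI BR, PHGDH was -0.05 to 0.15 and SLC7A11 -0.11 to 0.11 with 1 left out. For the line difference with 6-thio-dG, PSAT1 was -0.01 and SLC7A5 0.02 with the GC trend removed, and SLC7A5 -0.60 to 0.20 with 1 left out. With BIBR1532, PHGDH was -0.29 with upper-quartile factors, -0.06 with no filter, -0.11 with symbol-named rows, -0.05 with the crossed block and -0.83 to 0.62 with 1 left out, and ATF4 -0.11 to 0.88. Between control lines ATF4 was 0.13 with the GC trend removed and -0.95 to 0.04 with 1 left out.

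Replicate numbers did not pair the libraries throughout. Deviations of same-numbered libraries correlated at 0.492 between 6-thio-dG and BIBR1532 in A375, a shared part that the main fit does not model. The A375 control correlated with these groups at -0.101 and -0.205. In LOX-IMVI BR the pairs of groups correlated at 0.001, 0.035 and 0.025. With the replicate block 6, 1, 3 and 7 of the 10 genes were called for 6-thio-dG and BIBR1532 in A375 and then in LOX-IMVI BR, and 8, 3, 4 and 7 with the A375 control numbers crossed. Upper-quartile factors moved the median log2 change of all genes by 0.387, 0.232, 0.23 and -0.121 in these comparisons. Among called genes, the higher ones went from 54.6% to 80%, 53.8% to 66.4% and 57.8% to 73.5% in the first 3, and for BIBR1532 in LOX-IMVI BR from 80.8% to 63.3% with the GC trend removed. With symbol-named rows it went from 53.8% to 64.6% for BIBR1532 in A375. Between the compounds upper-quartile factors took it from 45.3% to 60.1% in A375 and from 48% to 69.5% in LOX-IMVI BR, and for the line difference with BIBR1532 from 57.6% to 38.1% (38.5% with symbol-named rows). Counts of the 64 other pathway genes moved by over 1.5 times as follows. For 6-thio-dG in A375 37 became 15 with the line alone. For BIBR1532 in A375 14 became 9 with upper-quartile factors, 7 with symbol-named rows, 2 with the line alone, 8 with the replicate block, 28 with the GC trend removed, 24 without control replicate 1, 2 without control replicate 2 and 0 without either BIBR1532 library. In LOX-IMVI BR 16 became 52 with the line alone for either compound, and for BIBR1532 28 with the GC trend removed and 7 to 9 with 1 library left out. Between the compounds 29 in A375 became 4 with the line alone and 11 and 19 without BIBR1532 replicate 1 and 2, and 31 in LOX-IMVI BR became 20 with upper-quartile factors, 56 with the line alone and 16, 17 and 19 without 6-thio-dG replicate 1, 6-thio-dG replicate 2 and BIBR1532 replicate 1. For the line difference with 6-thio-dG 14 became 23 with the DESeq2 test, 29 with no filter, 8 with the replicate block, 23 with it crossed, 37 with the GC trend removed and 6 to 35 with 1 library left out, and with BIBR1532 13 became 23 with no filter, 37 with the GC trend removed and 4 to 23 with 1 left out.

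With 2 libraries a group, an uncalled gene is not shown to be unchanged. PHGDH in LOX-IMVI BR rests on 10 to 21 counts a library.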

Other observations

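Set against each other, 6-thio-dG and BIBR1532 also separated the 64 other pathway genes. In A375 28 were lower and 1 was higher with 6-thio-dG, where 11.4% of symbol-named genes tested were lower and 5.13% higher, and the 29 called became 11 without BIBR1532 replicate 1 and 19 without replicate 2. In LOX-IMVI BR 31 were lower and none was higher, where 14.8% were lower and 5.53% higher, and the 31 became 16, 17 and 19 without 6-thio-dG replicate 1, 6-thio-dG replicate 2 and BIBR1532 replicate 1. Untreated, 37 of the 64 were lower and 4 higher in LOX-IMVI BR than in A375, where 32.3% of symbol-named genes tested were lower and 22.5% higher. Lower were all 7 of the other amino acid enzymes and 8 of the 11 tRNA synthetases. The transporter SLC1A4 was at 172 ± 60.6 CPM in A375 controls and 1.75 ± 0.418 CPM in LOX-IMVI BR controls (log2 -6.61 ± 0.43; edgeR adjusted p = 2.48e-08). For the line difference with 6-thio-dG 12 of the 64 were higher in LOX-IMVI BR and 2 lower, where 3.1% and 4.16% of symbol-named genes tested were. With BIBR1532 13 were higher and none lower, where 2.76% and 1.97% were. DDIT4 was 1 of the 2 lower with 6-thio-dG, at -3.74 ± 0.48 (LOX-IMVI BR minus A375; edgeR adjusted p = 0.000528), the opposite sign to the 4 called genes of the set.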
